A study of Arabidopsis thaliana with 6 samples.

Results

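Photosynthetic electron transport and carbon fixation were followed through 34 nuclear loci in anthers of Arabidopsis thaliana, out of 33027 loci in the deposited tables. They were set by a list of gene identifiers and not by a cut on measured values, but with earlier results of these data known. The list holds 4 antenna genes of photosystem I (LHCA1 to LHCA4), 10 genes for other photosystem I subunits (called the photosystem I core below), 7 genes of photosystem II, 5 genes for electron carriers and 8 genes of carbon fixation. Each locus is the sum of its transcript models, 49 models in all, and each of the 34 loci had counts in all 6 libraries.

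The libraries were made from whole anthers of wild-type plants of the Col-0 ecotype. The Fe-deficient group (3 libraries) came from plants kept for 18 days in hydroponic medium with no NaFe-EDTA added, and the control group (3 libraries) from plants kept for the same 18 days in half-strength Hoagland medium with NaFe-EDTA. Before that, both groups had iron for 28 days, and no transgene or mutation is named for either. The labels give the anther stage as PMC-TC, which was not interpreted, and do not say whether replicates were separate plants, so p-values measure the spread between these libraries only, which may be technical.

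Photosystem II takes electrons from water and passes them through the cytochrome b6f complex and plastocyanin to photosystem I, which reduces ferredoxin. The Calvin cycle uses the resulting reductant and ATP to fix carbon dioxide, beginning with the enzyme Rubisco. Photosystem I, the Rieske subunit of cytochrome b6f and ferredoxin hold iron-sulfur clusters, plastocyanin holds copper, and green tissue is known to carry fewer photosystem I complexes when iron is short. Anthers are green while young, and their wall layers hold chloroplasts.

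Totals ran from 16818176 to 21666427 estimated counts in the Fe-deficient libraries and from 17474137 to 22710901 in the controls. A member had between 168 and 52916 counts in a library. In Fe-deficient 3, bHLH38, a transcription factor gene of the iron-deficiency response, was at 198 CPM, and it was at no more than 0.135 CPM in any other library (CPM are counts scaled to a common library size). BTS, an iron-responsive E3 ligase gene, was at 860 CPM in Fe-deficient 3 and between 72.0 and 101 CPM in the other 5 libraries. FER1, a gene of the iron store ferritin, had 31.8 CPM in Fe-deficient 3 and 382 to 577 CPM in the other 5. FSD1, which encodes an iron superoxide dismutase, was below all controls in every Fe-deficient library, with 19.5, 10.8 and 0 CPM in Fe-deficient 1 to 3 and 47.0, 148 and 412 CPM in controls 1 to 3. Its adjusted p was 0.355 by edgeR's quasi-likelihood test with Benjamini-Hochberg adjustment. Library 3 of both groups also shared a high level of AP1, a sepal and petal identity gene, with 98.8 CPM in Fe-deficient 3 and 84.8 CPM in control 3, against at most 18.8 CPM in the other 4. The stamen identity genes AP3, PI, AG and SPL-NZZ were present in all libraries, with summed levels of 826 to 1144 CPM in Fe-deficient and 786 to 1003 CPM in control libraries.

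Most of the photosynthesis genes had lower mean levels in Fe-deficient than in control anthers, by amounts that did not pass the test over all genes. The log2 fold change, Fe-deficient over control, was negative for 31 of the 34 members, with a median of -0.50, where 49.7% of the 21267 tested loci were negative and their median was 0.00. By library, the members' median log2 CPM less the control mean was -0.61, -0.61 and -0.11 in Fe-deficient 1 to 3. It was -0.10, -0.20 and 0.26 in controls 1 to 3. Fe-deficient 3, the nearest of its group to the controls, is the library with high bHLH38 and BTS and low FER1. For 13 members all 3 Fe-deficient values lay below all 3 control values, where 10.3% of tested loci did so. For 1 member, LHCA4, all 3 lay above, where 10.0% of tested loci did. edgeR's quasi-likelihood test with Benjamini-Hochberg adjustment called 0 of the 34 members and 0 of 21267 loci at 0.05 (0% in either direction), and the members' adjusted p ran from 0.329 to 0.926. At an unadjusted p under 0.05, 15 members were lower, where 6.09% of tested loci were, and 0 were higher, where 7.34% were. DESeq2, run as an alternative, called 5 members lower (PSAF, PSAK, PSAG, PSBQ1 and PSBQ2), where it called 1.28% of loci lower, and 0 members higher, where it called 2.01% higher. limma-voom called 0 members and 0 loci, and limma on log2(TPM + 1) called 0 members, where it called 0.00482% of loci higher and 0.00964% lower.

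**Figure D1:**
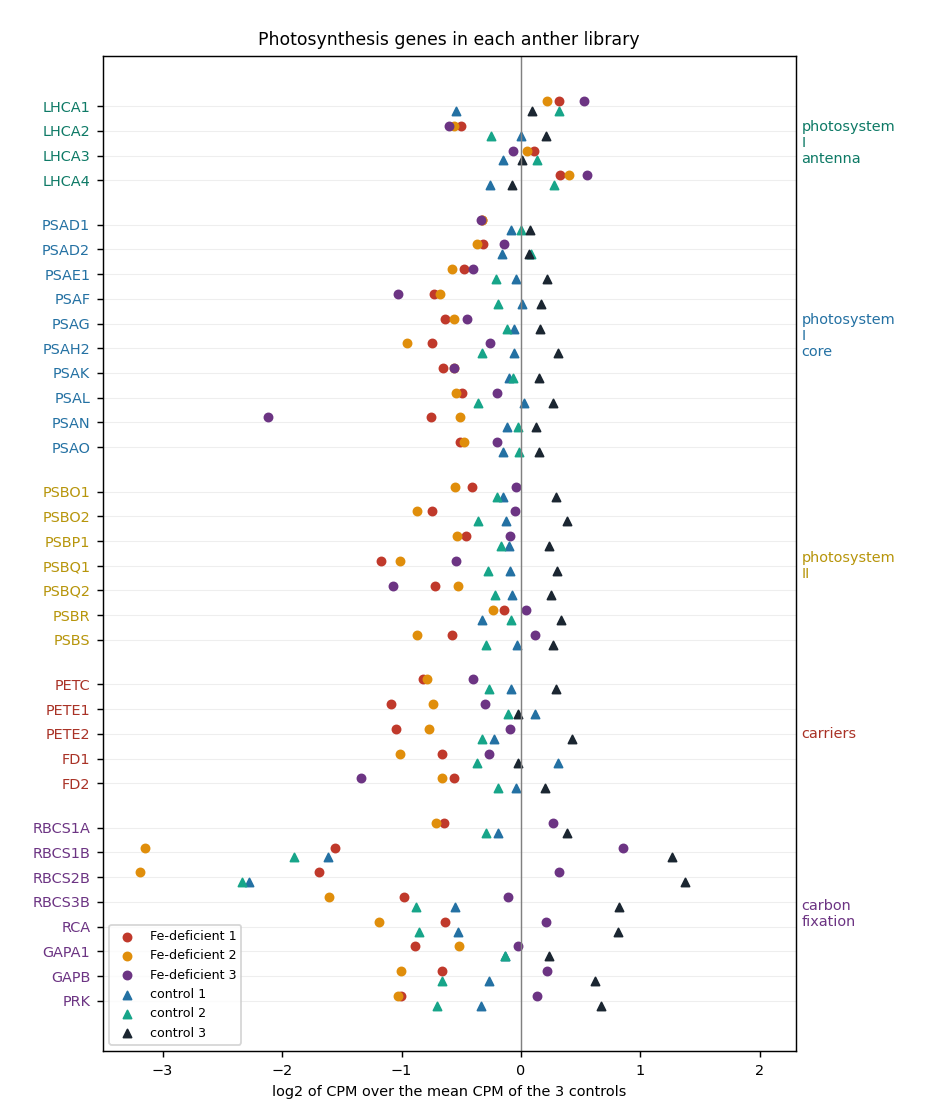
Each row is 1 gene and each symbol 1 library, placed at the log2 of its CPM over the mean of the 3 controls; circles are Fe-deficient and triangles control libraries. Photosystem I core circles lie left of most triangles, LHCA4 circles lie right of all 3 triangles, and PSAN in Fe-deficient 3 is farthest to the left of its class at -2.12.

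By class, the median log2 fold change was 0.20 for the 4 antenna genes of photosystem I, -0.51 for the 10 core genes, -0.38 for the 7 photosystem II genes, -0.66 for the 5 carriers and -0.43 for the 8 carbon fixation genes. All 3 Fe-deficient values lay below all controls for 1 antenna gene, 7 core genes, 2 photosystem II genes, 3 carriers and 0 carbon fixation genes. Over all tested loci the share was 10.3%. Carbon fixation genes were negative in 8 of 8 cases and overlapped between the groups in 8 of 8. Without control 3 the median of that class was 0.02, and without Fe-deficient 3 it was -0.95. The difference between classes was not tested.

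Markers of anther cell types differed in level beside these values. Of 9 tapetum genes (the tapetum is the nutritive layer around the pollen), 8 were below all controls, where 10.3% of tested loci were. The 9 tapetum genes summed to 921 to 2018 CPM in Fe-deficient and 2675 to 5067 CPM in control libraries. Of 9 late pollen genes, 6 were above all controls, where 10.0% of tested loci were. The 9 late pollen genes summed to 3763 to 11506 CPM in Fe-deficient and 855 to 4013 CPM in control libraries, and ANX2 was at 0 in control 1. The 4 carpel markers summed to 3.18 to 9.41 CPM in Fe-deficient and 7.94 to 16.9 CPM in control libraries. CA1 and CA2, carbonic anhydrase genes that are high in leaves, summed to 69.9, 34.7 and 132 CPM in Fe-deficient 1 to 3. In controls 1 to 3 they summed to 36.4, 48.1 and 628 CPM, so control 3 alone was high in that group. The part of these in the photosynthesis values was not tested, and in whole anthers fewer green cells and less RNA per cell cannot be told apart.

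**Figure D2:**
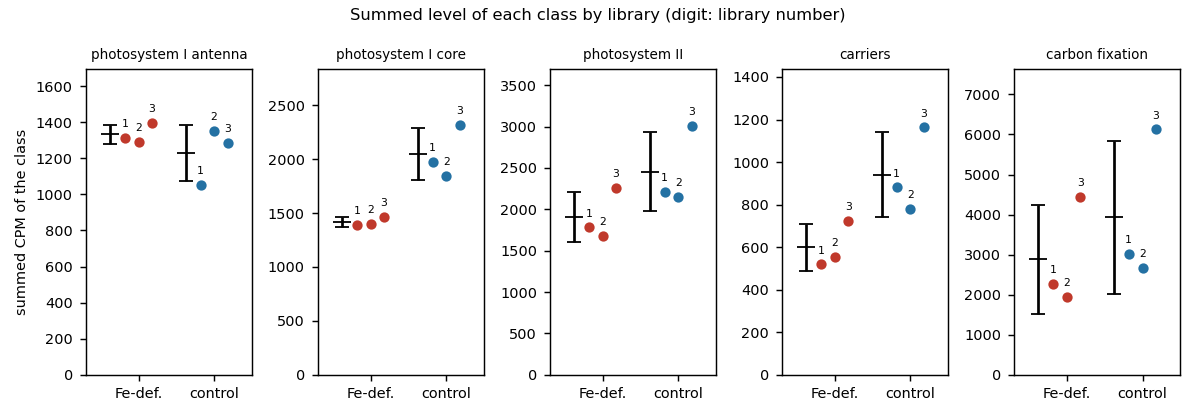
Summed CPM of each class (vertical axis, from 0) in each library, with the library number above each point; red is Fe-deficient, blue is control, and the bar left of each group is its mean and SD over 3 libraries. The photosystem I core sums are 1387, 1398 and 1466 CPM in Fe-deficient and 1972, 1847 and 2313 CPM in control libraries, and carbon fixation is highest in library 3 of both groups.

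The 250 bases upstream of 5 genes are shown because these genes carry the contrasts described below: PSAF and PSAK had the lowest unadjusted p among the members, PSBQ2 stands for photosystem II, LHCA4 was the member above all controls and RBCS2B differed most between libraries. They were chosen after the values were seen. Sequences run 5′ to 3′ on the gene's strand, end at the base before the annotated start in RefSeq's TAIR10.1 annotation, and overlap no other gene. Capitals mark 3 motifs known from light-regulated plant promoters, searched on both strands. The G-box is CACGTG, which reads alike on both strands. The I-box core is GATAAG, and CTTATC is its other strand. The motif CCAATC, in which GATTGG is the other strand, is linked to the GLK factors of chloroplast development. PSAF (AT1G31330, minus strand, chr1:11216142-11216391) has an I-box core 66 to 61 bases upstream. PSAK (AT1G30380, plus strand, chr1:10721933-10722182) has 1 on the other strand at 67 to 62. PSBQ2 (AT4G05180, minus strand, chr4:2673244-2673493) has G-boxes at 145 to 140 and 77 to 72, an I-box core at 15 to 10 and GATTGG at 246 to 241. LHCA4 (AT3G47470, minus strand, chr3:17495034-17495283) has a G-box at 88 to 83, CCAATC at 48 to 43 and GATTGG at 144 to 139. RBCS2B (AT5G38420, minus strand, chr5:15382072-15382321) has a G-box at 123 to 118 and 3 I-box cores.
PSAF: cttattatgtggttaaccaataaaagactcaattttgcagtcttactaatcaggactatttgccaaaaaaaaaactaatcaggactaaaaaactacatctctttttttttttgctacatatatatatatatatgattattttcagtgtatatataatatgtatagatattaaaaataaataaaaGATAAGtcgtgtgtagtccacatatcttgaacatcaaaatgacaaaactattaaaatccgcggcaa
PSAK: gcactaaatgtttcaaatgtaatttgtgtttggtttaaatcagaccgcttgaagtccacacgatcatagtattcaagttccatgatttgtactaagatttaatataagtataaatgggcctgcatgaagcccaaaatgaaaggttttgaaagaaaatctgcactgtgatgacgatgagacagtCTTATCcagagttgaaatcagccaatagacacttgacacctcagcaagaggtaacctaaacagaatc
PSBQ2: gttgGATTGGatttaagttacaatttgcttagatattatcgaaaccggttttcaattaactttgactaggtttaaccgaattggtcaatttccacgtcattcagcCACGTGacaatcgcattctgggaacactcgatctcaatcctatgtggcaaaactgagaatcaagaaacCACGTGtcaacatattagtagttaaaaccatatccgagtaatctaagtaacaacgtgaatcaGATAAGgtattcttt
LHCA4: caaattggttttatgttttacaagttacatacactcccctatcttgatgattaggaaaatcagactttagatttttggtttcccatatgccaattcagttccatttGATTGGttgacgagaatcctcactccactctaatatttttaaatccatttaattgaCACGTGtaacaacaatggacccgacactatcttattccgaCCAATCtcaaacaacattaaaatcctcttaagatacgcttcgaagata
RBCS2B: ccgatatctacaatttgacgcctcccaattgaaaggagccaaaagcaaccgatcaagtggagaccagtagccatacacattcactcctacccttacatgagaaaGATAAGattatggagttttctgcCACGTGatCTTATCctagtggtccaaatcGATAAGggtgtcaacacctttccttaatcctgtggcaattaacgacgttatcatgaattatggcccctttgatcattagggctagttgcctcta

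Over all 34 upstream windows, the G-box was in 6 (17.6%), where 6.57% of 27443 windows of the same length before protein-coding genes held it. The I-box core was in 12 (35.3%), against 12.4% of all windows, among them 5 of the 10 core genes and 3 of the 5 carriers. CCAATC was in 8 (23.5%), against 10.2%, among them 3 of the 4 antenna genes, 3 carriers and 0 of the 10 core genes. The letters TATAAA were in 15 (44.1%), against 47.2%. These are letter matches in a short window and not sites. Each window ends before the start of the first transcript model, so those of LHCA3, PSAL and PETE1 run into the gene's own annotated span. The I-box cores of PSAL and PETE1 and the CCAATC of PETE1 lie within that span but are counted here. Many windows run into a neighbouring gene, among them the motif-bearing windows of LHCA1, PSAH2, PSBQ1, PETE1 and PETE2.

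The antenna proteins LHCA1 to LHCA4 bind chlorophyll in a belt beside photosystem I, LHCA1 paired with LHCA4 and LHCA2 with LHCA3. Levels of LHCA4 in the 3 Fe-deficient libraries, in numerical order here and below, were 411, 434 and 482 CPM, against 275, 399 and 311 CPM for controls 1, 2 and 3. The lowest Fe-deficient value was just above the highest control, and the log2 fold change was 0.43 (SE 0.19) with an adjusted p of 0.376 by edgeR's quasi-likelihood test with Benjamini-Hochberg adjustment. In TPM, which is scaled for transcript length and library total but not for composition as the TMM factors behind CPM are, the groups overlapped for LHCA4. There its log2 fold change on log2(TPM + 1) was 0.23, where the median of all genes was -0.21. Its partner LHCA1 (AT3G54890) was at 380, 355 and 439 CPM in Fe-deficient anthers and at 209, 381 and 324 CPM in controls. Control 1 was the low library and the groups overlapped (log2 fold change 0.36, SE 0.25).

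LHCA2 (AT3G61470) went the other way, at 230, 222 and 216 CPM in Fe-deficient anthers and 328, 275 and 379 CPM in controls. All 3 Fe-deficient libraries were below all controls and close to each other (SD 7.21 CPM), and the log2 fold change was -0.55 (SE 0.16). LHCA2 shares 15.1% of its 31-base words with AT5G28450, so Salmon may have divided reads between them. LHCA3 (AT1G61520) was close in both groups, at 258 to 290 CPM in Fe-deficient and 242 to 295 CPM in control libraries, with a log2 fold change of 0.03. On log2(TPM + 1) the LHCA3 difference was -0.18, which is 0.03 relative to the median of all genes on that scale. The antenna class thus held 1 gene below, 1 above and 2 overlapping the controls, where 10.3% of tested loci were below and 10.0% above.

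Among the photosystem I core genes, 7 of 10 were below all controls, where 10.3% of tested loci were. PSAF, the subunit at which plastocyanin docks, was at 216, 224 and 176 CPM in Fe-deficient anthers, against 360, 313 and 402 CPM in controls. The highest Fe-deficient library was well below the lowest control, Fe-deficient 3 was the lowest of all, and the mean was 57.4% of the control mean. Its log2 fold change was -0.80 (SE 0.17), with an adjusted p of 0.329 by edgeR's quasi-likelihood test with Benjamini-Hochberg adjustment and of 0.00373 by DESeq2. PSAK, a membrane subunit at the antenna side, was at 108, 116 and 116 CPM in Fe-deficient anthers and 160, 163 and 190 CPM in controls. The 3 Fe-deficient values were nearly equal and below all controls (log2 fold change -0.59, SE 0.13; DESeq2 adjusted p 0.00523).

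PSAG (AT1G55670), a related membrane subunit that contacts the antenna, was at 134, 141 and 152 CPM in Fe-deficient anthers and 200, 192 and 233 CPM in controls. It did not overlap either (-0.55, SE 0.14; DESeq2 adjusted p 0.0211). PSAE1 (AT4G28750), a stromal subunit near the ferredoxin site, was at 99.4, 92.6 and 104 CPM in Fe-deficient anthers and 134, 120 and 160 CPM in controls, again with no overlap. PSAO (AT1G08380), a small membrane subunit, was at 165, 168 and 205 CPM in Fe-deficient anthers and 212, 232 and 261 CPM in controls. Here Fe-deficient 3 was just below control 1, the smallest gap among these genes.

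PSAD1 (AT4G02770) and PSAD2 (AT1G03130) encode the stromal subunit to which ferredoxin binds. PSAD1 was at 180, 180 and 179 CPM in Fe-deficient anthers, against 214, 227 and 238 CPM in controls. That is 180 ± 0.649 CPM in Fe-deficient and 226 ± 11.9 CPM in control libraries (SD, n = 3 each), the narrowest Fe-deficient spread of any member, with a log2 fold change of -0.33 (SE 0.12). PSAD2, the minor copy, was at 60.2, 57.9 and 67.9 CPM in Fe-deficient libraries and 66.9, 79.2 and 78.4 CPM in control libraries, which overlap. The ratio PSAD1 to PSAD2 was between 2.64 and 3.11 in Fe-deficient and between 2.86 and 3.19 in control libraries, ranges that overlap.

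PSAN (AT5G64040), a subunit on the lumen side, was at 75.0, 88.8 and 29.1 CPM in Fe-deficient anthers and 117, 124 and 138 CPM in controls. The groups did not overlap, and Fe-deficient 3 was far below the other 2 of its group. The log2 fold change was -0.97 (SE 0.39), and -0.62 without that library. PSAL (AT4G12800) and PSAH2 (AT1G52230) lie where mobile antenna attaches. PSAL was at 283, 273 and 347 CPM in Fe-deficient libraries and 405, 310 and 480 CPM in control libraries, overlapping through Fe-deficient 3. PSAH2 ranged from 56.0 to 90.6 CPM in Fe-deficient and from 86.6 to 134 CPM in control libraries, and shares 21.4% of its 31-base words with AT1G52240. Its log2 fold change was -0.62 (SE 0.24).

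**Figure D3:**
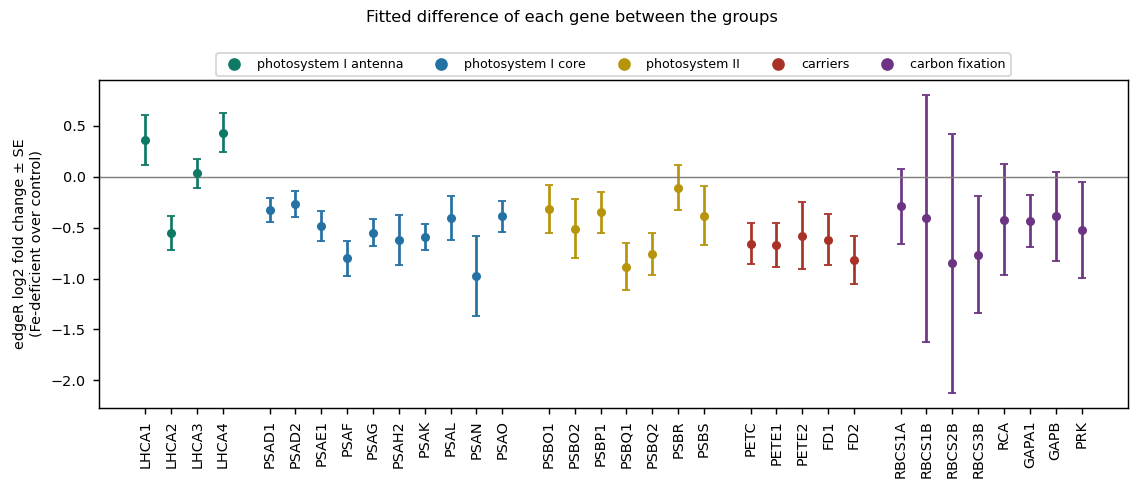
Points are edgeR log2 fold changes (Fe-deficient over control) of the 34 genes in order of class, and bars are the standard error of each. Photosystem I core genes lie between -0.97 and -0.27 with mostly short bars, and the bars of RBCS1B and RBCS2B reach from below -1.5 to above 0.

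Core and antenna sums were set against each other within each library, a ratio formed after the class values were seen. Summed core CPM over summed antenna CPM was 1.06, 1.08 and 1.05 in Fe-deficient anthers, against 1.87, 1.37 and 1.80 in controls. The Fe-deficient libraries were almost equal, at 1.06 ± 0.0171, and all were below the controls, at 1.68 ± 0.272 (SD, n = 3 each). In TPM the ratio was 1.70, 1.77 and 1.72 in Fe-deficient and 2.97, 2.25 and 2.89 in control libraries, again with no overlap. Both LHCA levels and core levels enter it. Summed antenna CPM were 1312, 1291 and 1394 in Fe-deficient and 1054, 1350 and 1285 in control libraries, which overlap. In TPM the antenna sums were 1108, 1121 and 1463 against 1126, 1396 and 1448, which overlap too. The core sums did not overlap in either unit. Summed photosystem II over summed core CPM was 1.28, 1.20 and 1.54 in Fe-deficient and 1.12, 1.16 and 1.30 in control libraries, and these overlap. Carbon fixation over core was 1.63, 1.38 and 3.03 in Fe-deficient and 1.53, 1.44 and 2.65 in control libraries, which also overlap and in which library 3 was the high one in both groups.

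**Figure D4:**
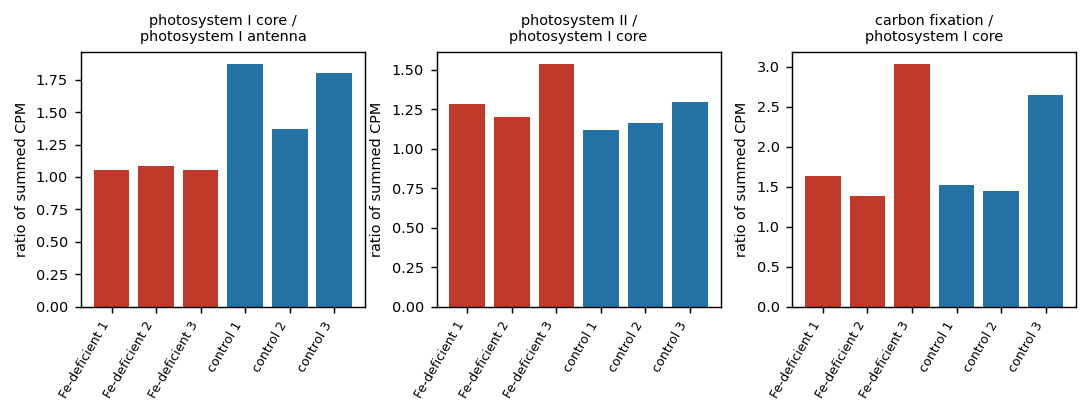
Bars, from 0, show ratios of summed CPM between classes in each library, Fe-deficient in red and control in blue. The core to antenna ratio is 1.05 to 1.08 in Fe-deficient and 1.37 to 1.87 in control libraries, whereas the other 2 ratios overlap between the groups.

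In photosystem II, the genes for the extrinsic proteins that stabilise the oxygen-evolving centre behaved unequally. PSBQ1 (AT4G21280) was at 80.2, 89.4 and 124 CPM in Fe-deficient anthers and 169, 149 and 223 CPM in controls. PSBQ2 was at 139, 159 and 109 CPM in Fe-deficient anthers and 218, 198 and 274 CPM in controls. Both PSBQ genes were below all controls, with log2 fold changes of -0.89 (SE 0.23) and -0.76 (SE 0.20), and DESeq2 gave adjusted p of 0.0374 for PSBQ1 and 0.0456 for PSBQ2. The copies parted in Fe-deficient 3, where PSBQ1 was highest and PSBQ2 lowest of the group. The PSBQ1 to PSBQ2 ratio was 0.576, 0.561 and 1.13 in Fe-deficient libraries, against 0.776, 0.755 and 0.814 in controls.

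PSBO1 (AT5G66570) and PSBO2 (AT3G50820) encode the manganese-stabilising protein. PSBO1 was at 559, 509 and 722 CPM in Fe-deficient libraries and 672, 648 and 913 CPM in control libraries. PSBO2 was at 87.1, 80.1 and 141 CPM in Fe-deficient libraries and 134, 114 and 191 CPM in control libraries. For both, Fe-deficient 3 lay above the lower controls, so the groups overlapped. The PSBO1 to PSBO2 ratio was 6.42, 6.35 and 5.11 in Fe-deficient and 5.02, 5.68 and 4.79 in control libraries.

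PSBR (AT1G79040), which helps hold the extrinsic proteins, had the second highest mean TPM of all members and was at 443, 417 and 503 CPM in Fe-deficient libraries and 390, 461 and 617 CPM in control libraries. Its log2 fold change of -0.11 (SE 0.22) was the smallest negative value in the class and was 0.10 without control 3. PSBP1 (AT1G06680), another extrinsic protein gene, ranged from 313 to 426 CPM in Fe-deficient and from 405 to 535 CPM in control libraries (-0.35, SE 0.20). PSBS (AT1G44575), needed for the quenching of excess light energy, ranged from 115 to 228 CPM in Fe-deficient and from 172 to 253 CPM in control libraries (-0.38, SE 0.29). Both overlapped through Fe-deficient 3.

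The 5 carriers had the lowest class median. PETC (AT4G03280), the Rieske iron-sulfur protein of cytochrome b6f, was at 99.0, 101 and 133 CPM in Fe-deficient anthers and 165, 146 and 215 CPM in controls. All Fe-deficient values were below all controls (log2 fold change -0.66, SE 0.20; adjusted p 0.331 by edgeR's quasi-likelihood test with Benjamini-Hochberg adjustment). The copper protein plastocyanin has 2 genes. PETE1 (AT1G76100), with the lowest mean TPM of all members, was at 24.6, 31.5 and 42.6 CPM in Fe-deficient libraries and 56.9, 48.6 and 51.5 CPM in control libraries, with no overlap (-0.67, SE 0.21). PETE2 (AT1G20340), the major copy, was at 214, 260 and 415 CPM in Fe-deficient libraries and 379, 353 and 595 CPM in control libraries, overlapping through Fe-deficient 3 (-0.58, SE 0.33). The PETE1 to PETE2 ratio was between 0.103 and 0.121 in Fe-deficient and between 0.0866 and 0.150 in control libraries.

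FD2 (AT1G60950) and FD1 (AT1G10960) encode leaf-type ferredoxins, iron-sulfur proteins that accept electrons from photosystem I. FD2 was at 143, 133 and 83.4 CPM in Fe-deficient anthers and 205, 185 and 243 CPM in controls. It did not overlap, Fe-deficient 3 was lowest, and the log2 fold change was -0.82 (SE 0.24), the lowest of the carriers. FD1 was at 37.8, 29.6 and 49.7 CPM in Fe-deficient libraries and 74.3, 46.4 and 58.8 CPM in control libraries, which overlap. The FD1 to FD2 ratio was 0.263, 0.223 and 0.595 in Fe-deficient and 0.362, 0.251 and 0.242 in control libraries, highest in Fe-deficient 3.

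Carbon fixation genes varied widely between libraries of the same group. RBCS1A (AT1G67090), the main gene of the Rubisco small subunit and the member with the highest mean TPM, was at 1083, 1031 and 2031 CPM in Fe-deficient anthers and 1478, 1381 and 2210 CPM in controls. Library 3 was the highest in each group and the groups overlapped (log2 fold change -0.29, SE 0.37). The other small-subunit genes, RBCS1B, RBCS2B and RBCS3B, lie beside each other on chromosome 5. RBCS2B was at 63.5, 22.5 and 255 CPM in Fe-deficient libraries and 42.2, 40.6 and 532 CPM in control libraries. RBCS1B (AT5G38430) was at 28.7, 9.53 and 153 CPM in Fe-deficient libraries and 27.6, 22.7 and 203 CPM in control libraries. RBCS3B (AT5G38410) was at 412, 267 and 757 CPM in Fe-deficient libraries and 556, 444 and 1443 CPM in control libraries.

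All 3 of these were higher in library 3 of both groups, RBCS1B and RBCS2B by far more than RBCS3B. Library 3 over the mean of libraries 1 and 2 was 7.99 in Fe-deficient and 8.07 in control anthers for RBCS1B. The same ratios were 5.93 and 12.9 for RBCS2B and 2.23 and 2.89 for RBCS3B. Between 18.9% and 37.1% of the 31-base words of these 3 genes occur in another locus, so their separate values are uncertain. Without control 3 the fitted log2 fold change of RBCS1B was 1.34 and that of RBCS2B was 1.46, the opposite sign of -0.41 (SE 1.21) and -0.85 (SE 1.27) with all libraries. RBCS1A over the summed 3 other genes was 2.15, 3.45 and 1.74 in Fe-deficient and 2.36, 2.72 and 1.01 in control libraries.

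RCA (AT2G39730), which reactivates Rubisco, ranged from 193 to 507 CPM in Fe-deficient and from 243 to 769 CPM in control libraries (-0.42, SE 0.54). GAPA1 (AT3G26650) and GAPB (AT1G42970) encode subunits of the chloroplast glyceraldehyde-3-phosphate dehydrogenase. GAPA1 was at 177, 228 and 321 CPM in Fe-deficient libraries and 299, 298 and 385 CPM in control libraries. GAPB was at 124, 97.8 and 228 CPM in Fe-deficient libraries and 163, 125 and 302 CPM in control libraries. Both overlapped, with library 3 high, and their ratio was between 1.41 and 2.33 in Fe-deficient and between 1.28 and 2.40 in control libraries. PRK (AT1G32060), which makes the carbon dioxide acceptor, ranged from 86.5 to 194 CPM in Fe-deficient and from 109 to 280 CPM in control libraries (-0.52, SE 0.47).

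The 7 ratios between copies were each compared between groups with an exact two-sided permutation test over 3 against 3 libraries, which cannot go below p = 0.1. The p ran from 0.2 for PSBO1 to PSBO2 to 1 for PSBQ1 to PSBQ2, and each was 1 after adjustment over the 7. No shift between copies was detectable with these libraries, and a design of this size could not reach 0.05.

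Library 3 set the order in much of the list. Of the 34 members, 28 had their highest value in control 3, and the Fe-deficient 3 value lay within the control range for 19, below it for 13 and above it for 2. These positions were not counted over all tested loci, so they are not read as particular to the list. Without Fe-deficient 3, 27 members were below all controls, where 27.1% of loci were, and 1 was above, where 27.7% were. With replicates 1 and 2 of each group alone, 27 were below both controls, where 34.7% of loci were, and 1 was above both, where 32.1% were. In that fit edgeR called 0 members, where it called 0.419% of loci higher and 0.0141% lower. The Fe-deficient 3 value over the mean of Fe-deficient 1 and 2 had a class median of 2.18 in carbon fixation, 1.35 in photosystem II, 1.47 in carriers, 1.09 in the photosystem I core and 1.05 in its antenna. The same ratio of control 3 to controls 1 and 2 had medians of 2.53, 1.38, 1.25, 1.18 and 1.05 for these classes in that order. Library 3 was highest relative to its group in carbon fixation, in both groups.

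Against this, 7 members were lower in Fe-deficient 3 than in the mean of Fe-deficient 1 and 2. PSAN was at 0.356 of that mean, FD2 at 0.603, PSBQ2 at 0.731 and PSAF at 0.797, while in the control group the same genes were at 1.14, 1.25, 1.32 and 1.19 in library 3. LHCA2, LHCA3 and PSAD1 were between 0.905 and 0.994. These 4 low genes come from the photosystem I core, the carriers and photosystem II, and they were named after their values were seen. The share of all tested loci that were lower in Fe-deficient 3 in this way was not counted. The 7 members are therefore not read as particular to the list. Fe-deficient 3 is the library with high bHLH38 and BTS, it is 1 library, and the part of iron status in these values was not tested.

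**Figure D5:**
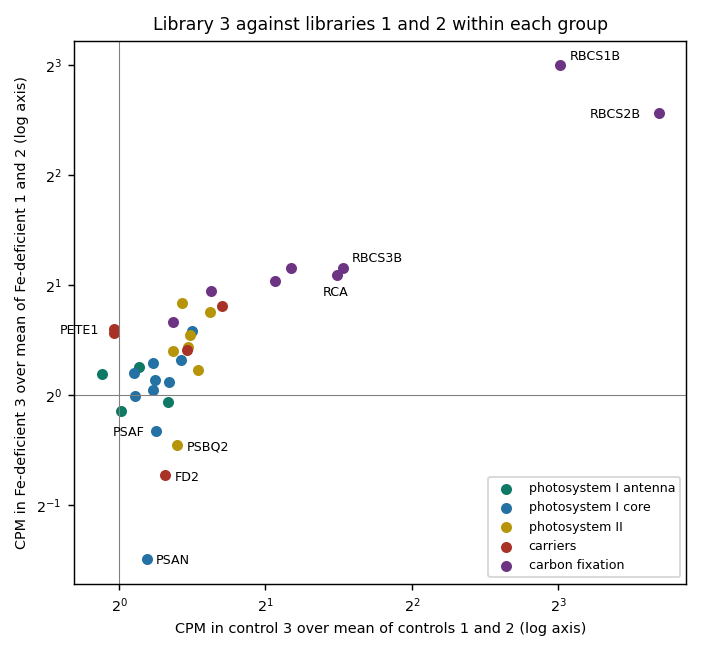
Each point is 1 gene: vertically, its CPM in Fe-deficient 3 over the mean of Fe-deficient 1 and 2, and horizontally, its CPM in control 3 over the mean of controls 1 and 2, on log axes with lines at 1. RBCS1B and RBCS2B are at the upper right (7.99 and 5.93 vertically), and PSAN, FD2, PSBQ2 and PSAF lie below 1 vertically and above 1 horizontally.

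Other nuclear genes of the same pathway, 41 loci outside the 34, had a median log2 fold change of -0.36, with 33 negative. Of the 41, 5 were below all controls, close to the 10.3% of all tested loci, and 0 were above, where 10.0% of loci were. An unadjusted p under 0.05 was reached by 8, all lower, where 6.09% of loci were lower at that level. edgeR's quasi-likelihood test called 0 of them and DESeq2 called 1 lower, where it called 1.28% of loci lower. The gene called was PSBTN (AT3G21055), a small photosystem II subunit. Its levels were 73.4, 69.0 and 95.5 CPM in Fe-deficient and 146, 115 and 164 CPM in control libraries, with no overlap (-0.84, SE 0.20; DESeq2 adjusted p 0.0201). PSBX, another small subunit, was below all controls (-0.45), and PSBW overlapped (-0.34).

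PSAE2 and PSAH1 are second copies of photosystem I core genes. PSAE2 was at 58.6, 65.8 and 71.9 CPM in Fe-deficient libraries and 84.3, 84.5 and 94.2 CPM in control libraries. PSAH1 was at 114, 111 and 123 CPM in Fe-deficient libraries and 137, 146 and 178 CPM in control libraries. Neither overlapped between groups, with log2 fold changes of -0.42 and -0.40. LHCA6, a rare antenna gene, stayed at or below 18.8 CPM in all libraries and overlapped (-1.21, SE 0.58). LHCA5, another antenna gene outside the list and named here after its values were seen, overlapped too (-0.20, SE 0.25). The positive antenna median given above is that of LHCA1 to LHCA4 and leaves both of these negative genes out.

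Among other carriers, PETM, a small cytochrome b6f subunit, was at 64.7, 105 and 39.3 CPM in Fe-deficient libraries and 103, 126 and 155 CPM in control libraries. It overlapped through Fe-deficient 2 and was lowest in Fe-deficient 3 (-0.88, SE 0.36). FDC2, a ferredoxin-like protein, and LFNR1, a ferredoxin-NADP reductase, overlapped as well (-0.54 and -0.56). The 3 nuclear ATP synthase subunits ATPD, ATPC1 and ATPG overlapped between groups, with log2 fold changes of -0.68, -0.36 and -0.29. Of 15 other Calvin cycle genes 11 were negative, and GAPA2 (-0.60), RPI3 (-0.59) and RPE (-0.36) had the lowest unadjusted p, of which RPE alone was below all controls.

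Photorespiration, which recycles the product of Rubisco's reaction with oxygen, gave a median of -0.18 over 10 genes, with 8 negative, 0 below all controls and 1 above, where 10.3% and 10.0% of loci were. The last was AGT1, a peroxisomal aminotransferase gene, at 268, 288 and 292 CPM in Fe-deficient and 76.2, 137 and 261 CPM in control libraries (0.84, SE 0.42). PGLP1 (-0.55) and GLDT (-0.23) overlapped.

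Of 16 regulators of chloroplast genes 14 passed the filter on low counts, with 6 negative and 8 positive, and 3 were below and 2 above all controls, against 10.3% and 10.0% of all loci. GLK1, a factor that activates genes of the photosynthetic apparatus, was at 16.2, 9.25 and 13.9 CPM in Fe-deficient libraries and 40.9, 20.5 and 23.3 CPM in control libraries. It was below all controls, with a log2 fold change of -1.11 (SE 0.34) and an adjusted p of 0.331 by edgeR's quasi-likelihood test with Benjamini-Hochberg adjustment. PIF4 and PIF5 belong to the phytochrome-interacting factors, repressors of greening. PIF4 was at 5.45, 4.31 and 6.08 CPM in Fe-deficient libraries and 2.16, 3.65 and 3.30 CPM in control libraries. PIF5 was at 5.65, 4.65 and 19.1 CPM in Fe-deficient libraries and 0.955, 1.90 and 4.55 CPM in control libraries. Both were above all controls, at log2 fold changes of 0.80 and 1.98, and neither passed the adjusted threshold. Other members of both families, named here after their values were seen, gave values of either sign. PIF3 was below all controls (-0.42, SE 0.19), PIF1 overlapped (0.16, SE 0.34), and GLK2, the relative of GLK1, overlapped (1.62, SE 0.71).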

How the data were processed

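RNA of 3 Fe-deficient and 3 control anther libraries was sequenced single-end from TruSeq v2 libraries, per the labels. The submitters' processing notes name Trimmomatic 0.35, Salmon 0.12.0 and TAIR10. The deposited tables hold, per the file headers, Salmon's estimated counts, TPM, length and effective length for each of 41086 transcripts. The sources used here do not give the handling of strand, so antisense overlaps cannot be told apart, and Salmon divides reads between similar copies.

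Estimated counts were summed per locus and rounded. edgeR 4.0.16 (R 4.3.3) fitted group alone by the quasi-likelihood method with TMM factors after filterByExpr, leaving 21267 loci, with Benjamini-Hochberg adjustment over all of them at 0.05. CPM use TMM-scaled library sizes. The alternatives used DESeq2 1.42.0, limma 3.58.1 (voom, and log2(TPM + 1) on the authors' deposited TPM), other scaling and filters, a replicate block, and libraries left out. Figures were drawn with matplotlib 3.10.9.

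The members and the lists were chosen with earlier results of these data known. Full values are given for members whose groups did not overlap, for paralog pairs and for the 2 members of each class with the highest mean TPM. From the other lists, up to 3 genes per role with the lowest unadjusted p are named. Genes singled out for library 3, the class ratios and the printed sequences were chosen after the values were seen.

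Upstream windows came from the TAIR10.1 genome and RefSeq annotation. All 49 member transcripts were found there, but 15 have the same length in both, so the annotated starts may differ from the authors' models. Counting error and the division of reads between similar copies both limit the precision of the counts, and the library totals are given above.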

Additional observations from a re-analysis of the deposited data

How the results depend on the processing

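Over 15 alternative settings the 34 members gave 510 fitted log2 fold changes, of which 492 kept their sign and their side of the threshold, 5 passed it (DESeq2), and 13 reversed. The count of genes called, 0 as reported, was 717 by DESeq2, 92 with replicates 1 and 2 only, and 3, 8 and 2 by limma on log2(TPM + 1), on log2(TPM + 0.1) and on log2(TPM + 1) with no TPM filter. Members called were 5 by DESeq2 and 0 elsewhere. On the 3 TPM settings 0 members were above all controls, the antenna median was 0.0011 in each, and the core median was -0.72, -0.73 and -0.72. The median of all genes was itself shifted there by -0.21, -0.23 and -0.13, and less the shift of -0.21 the core was at -0.52 and the antenna at 0.21. Leaving out 1 library at a time gave 13 to 27 members below all controls (27 without Fe-deficient 3) and 1 to 2 above (2 without control 2), and replicates 1 and 2 only gave 27 below. With fewer libraries more loci separate (27.1% below and 27.7% above without Fe-deficient 3, against 10.3% and 10.0% with all 6), so these counts do not compare directly with 13. Class medians in these fits ran from 0.05 to 0.33 for the antenna, -0.59 to -0.40 for the core, -0.62 to -0.22 for photosystem II, -0.83 to -0.58 for carriers and -0.95 to 0.02 for carbon fixation. The sign of LHCA3 was reversed on the 3 TPM settings (-0.18 each; 0.03, 0.05 and -0.05 less the median of all genes), and ran from -0.040 (without control 1) to 0.11 over the libraries left out, with -0.0048 without Fe-deficient 1. RBCS1B was at 0.10 without Fe-deficient 2. Without control 3 the values turned positive for PSBR (range over the libraries left out -0.25 to 0.10), RBCS1B (-2.15 to 1.34), RBCS2B (-2.26 to 1.46), RCA (-0.89 to 0.26) and GAPB (-0.82 to 0.060), the upper end in each range. With replicates 1 and 2 only PSBR was at 0.016 and RBCS2B at 0.052. The cause was not tested. Same-numbered libraries did not all deviate together (correlations of -0.178, 0.456 and -0.102 for pairs 1, 2 and 3), and Fe-deficient 1 and 3 correlated best with another number. By this check the numbers were not taken as pairs, although AP1, RBCS1B, RBCS2B and the third LHCA3 model were alike by number. The share of ribosomal RNA was alike by number in libraries 1 and 2 but not in 3. Whether a number marks a shared step was not tested. With the replicate number as a block, 0 genes and 0 members were called, 13 members were below all controls, and the class medians were 0.22, -0.51, -0.42, -0.65 and -0.46 in the order above.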

Other observations

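The third transcript model of LHCA3 took 20.9%, 0% and 10.6% of the estimated counts of that locus across the Fe-deficient libraries 1 to 3, while the shares across the controls were 23.9%, 0% and 6.56%. Library 2 of both groups had none, where 3 counts would have been 0.0610% of the LHCA3 counts in Fe-deficient 2 and 0.0553% in control 2. The ribosomal RNA transcript AT2G01020 took 8.25%, 3.60% and 6.04% of TPM in the Fe-deficient libraries and 7.95%, 3.64% and 2.00% in the controls, so library 1 was highest in both groups. The share of all counts that fell on the 34 photosynthesis genes was 0.641%, 0.623% and 1.09% in the Fe-deficient libraries and 0.966%, 0.924% and 1.46% in the controls.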
